A study of Drosophila melanogaster with 7 samples.

Results

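The 10 genes described here drive or brake the cell cycle of neural stem cells: the cyclins CycA, CycB, CycB3, CycD and CycE, the mitotic kinase Cdk1, its activating phosphatase stg (string), the stg antagonist trbl (tribbles), the CDK inhibitor dap (dacapo) and the replication clamp PCNA. They were taken by their symbols, are 10 of the 17493 genes counted in every library, and were read in 6 cell classes of the Drosophila melanogaster larval brain. The cells came from brain lobes of first instar larvae of the strain labelled Wild type CS, with no mutant allele or transgene, pooled from many larvae, cut free of the ventral nerve cord and dissociated with collagenase. Starvation larvae were moved at 11 h after larval hatching by the labels (the study's methods give another time) to dishes of moist 2% agar without nutrients for 4 h, and normal larvae stayed on cornmeal agar food. Starvation was measured in 2 replicates (Starvation A in 2 libraries, Starvation B in 1) and normal feeding in 3 (Normal A and Normal C in 1 library each, Normal B in 2).

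Most neuroblasts, the stem cells of the fly brain, stop dividing at the end of embryogenesis, in G0 or in G2, and resume when the larva feeds and glia pass on insulin-like peptides. CycD with its kinase and CycE with Cdk2 carry a cell through G1 into S phase, and dap blocks CycE with Cdk2. CycA, CycB and CycB3 with Cdk1 carry it into and through mitosis, after stg has removed the inhibitory phosphate from Cdk1. The pseudokinase trbl sends the Stg protein to degradation and is known to hold quiescent neuroblasts in G2, whereas dap marks those held in G0. CycA lies at chr3L:11826719-11833578, CycB at chr2R:22803521-22806948, CycB3 at chr3R:24867934-24870816, CycD at chrX:15906822-15909676 and CycE at chr2L:15727581-15748150. Cdk1 lies at chr2L:10384739-10386262, stg at chr3R:29251826-29255800, trbl at chr3L:20396288-20401609, dap at chr2R:9712321-9716256 and PCNA at chr2R:20261754-20262883. These are the gene bounds of the release 6 assembly, with dap on the plus strand and the other 9 members on the minus strand. No other gene lay over a member on its own strand, although CG7264 lies opposite CycA and 2 noncoding genes lie opposite CycE.

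Of 9353 cells, 8696 had over 200 and under 4500 genes with under 20% mitochondrial UMIs, and the libraries held between 5359444 and 25232852 UMIs (unique molecular identifiers, which count captured RNA molecules). The 6 classes were 1097 neuroblasts, 265 newborn neurons, 189 cells of the optic lobe neuroepithelium (the sheet that gives rise to the stem cells of the visual centres), 810 undifferentiated neurons (hdc-positive cells without a mature neuronal profile), 481 glia and 5003 neurons. Of the defining markers, dpn stood at 164 CPM in neuroblasts, repo at 166 CPM in glia, nerfin-1 at 275 CPM in newborn neurons and hdc at 11560 CPM in undifferentiated neurons, each above its level in the other 5 classes, where CPM is the UMIs of a gene divided by all UMIs of the class and scaled to 1000000. The neuronal gene elav was at 493 CPM in neurons, 454 CPM in undifferentiated neurons and 920 CPM in newborn neurons. The neuroblast gene wor was at 198 CPM in neuroblasts and 225 CPM in newborn neurons. Of the markers used to name the neuroepithelium, tll stood at 77.0 CPM there, below its 218 CPM in newborn neurons. The others are not given here. No marker list set dividing precursors of neurons apart, so the class called newborn neurons can hold them. Cell barcodes were shared between libraries in 1794 cells, and for 1095 cells another library held the same barcode at more than 3 times the UMIs (copied barcodes). These cells made up 43.9% of neuroblasts, 56.6% of the neuroepithelium, 6.65% of glia and 0.988% of undifferentiated neurons. In Normal B, 445 cells had the larger copy in Starvation A, of the other condition, and 388 in the other library of Normal B. In Starvation A, 164 cells had it in Normal B and 90 in the other library of Starvation A. The median depth of a neuroblast was 8173.5 and 17135 UMIs in Starvation A and B, against 3209, 3220.5 and 23638 UMIs in Normal A, B and C, so Normal C was the deepest. The limit of 4500 genes removed 329 cells, and 192 of these (58.4%) were neuroblasts.

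Each member had its own order of levels over the 6 classes, given here as a mean with SD over the replicates of both conditions. CycE was the member with its top level in neuroblasts, at 63.6 ± 31.5 CPM (n = 5), and its lowest neuroblast replicate (43.7 CPM) stood above the highest replicate of the next class, the neuroepithelium (22.2 ± 4.41 CPM, n = 4, highest 27.0). Newborn neurons held 13.7 ± 5.05 CPM of CycE, glia 6.58 ± 5.71 CPM and neurons 4.86 ± 2.09 CPM (n = 5 each), and undifferentiated neurons 2.93 ± 2.37 CPM (n = 4). Neighbouring classes among these 4 overlapped.

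CycD, PCNA and stg had their top level in the neuroepithelium. CycD averaged 32.5 ± 3.91 CPM there (n = 4) and 25.1 ± 5.61 CPM in neuroblasts (n = 5), and these ranges overlapped, while neurons held 3.45 ± 1.70 CPM. PCNA averaged 291 ± 136 CPM in the neuroepithelium and 249 ± 92.9 CPM in neuroblasts, again overlapping, and 40.2 ± 15.3 CPM in undifferentiated neurons (n = 4). Transcripts of stg averaged 374 ± 101 CPM in the neuroepithelium and 280 ± 143 CPM in newborn neurons, with overlap, against 42.01 ± 15.3 CPM in neuroblasts. Newborn neurons held over 100 CPM more stg than neuroblasts in 4 of 5 replicates, and in Normal A, where newborn neurons were 15 cells with 3 stg UMIs, the values were 53.5 CPM in newborn neurons and 53.2 CPM in neuroblasts.

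The mitotic genes CycA, CycB, CycB3 and Cdk1 had their top mean in the class called newborn neurons, which can hold dividing precursors. CycB averaged 83.4 ± 27.2 CPM there (n = 5), 31.8 ± 17.4 CPM in the neuroepithelium (n = 4) and 29.6 ± 14.4 CPM in neuroblasts (n = 5). Cdk1 averaged 186 ± 101 CPM in newborn neurons, 99.7 ± 40.4 CPM in the neuroepithelium and 94.4 ± 41.4 CPM in neuroblasts. For each of these 4 genes the ranges of neighbouring top classes overlapped, and within newborn neurons the level was split between 2 clusters: cluster 20 held 407 CPM of stg, 266 CPM of Cdk1, 147 CPM of CycA and 118 CPM of CycB, and cluster 29 held 42.2, 50.7, 29.6 and 14.8 CPM of the same genes. CycA averaged 109 ± 58.7 CPM in newborn neurons and 94.3 ± 25.2 CPM in neuroblasts, and CycB3 33.5 ± 12.7 CPM and 23.7 ± 9.19 CPM.

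The brakes trbl and dap had their top level in undifferentiated neurons. There trbl averaged 243 ± 91.2 CPM (n = 4), and its lowest replicate, at 117 CPM, stood above the highest of neuroblasts, at 79.6 CPM. The neuroblast mean was 46.1 ± 22.7 CPM (n = 5), and newborn neurons, where the stg level was high, had 7.73 ± 10.2 CPM of trbl. The inhibitor dap averaged 159 ± 75.4 CPM in undifferentiated neurons, 65.6 ± 50.1 CPM in newborn neurons, 61.3 ± 20.2 CPM in the neuroepithelium and 45.5 ± 6.18 CPM in neuroblasts, and each of these ranges overlapped the next. In glia dap was at 12.0 ± 6.35 CPM and in neurons at 4.94 ± 1.55 CPM. With cells over the gene limit kept, 7 of 10 members had the same top class, and CycA, CycB3 and PCNA had theirs in neuroblasts.

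**Figure D1:**
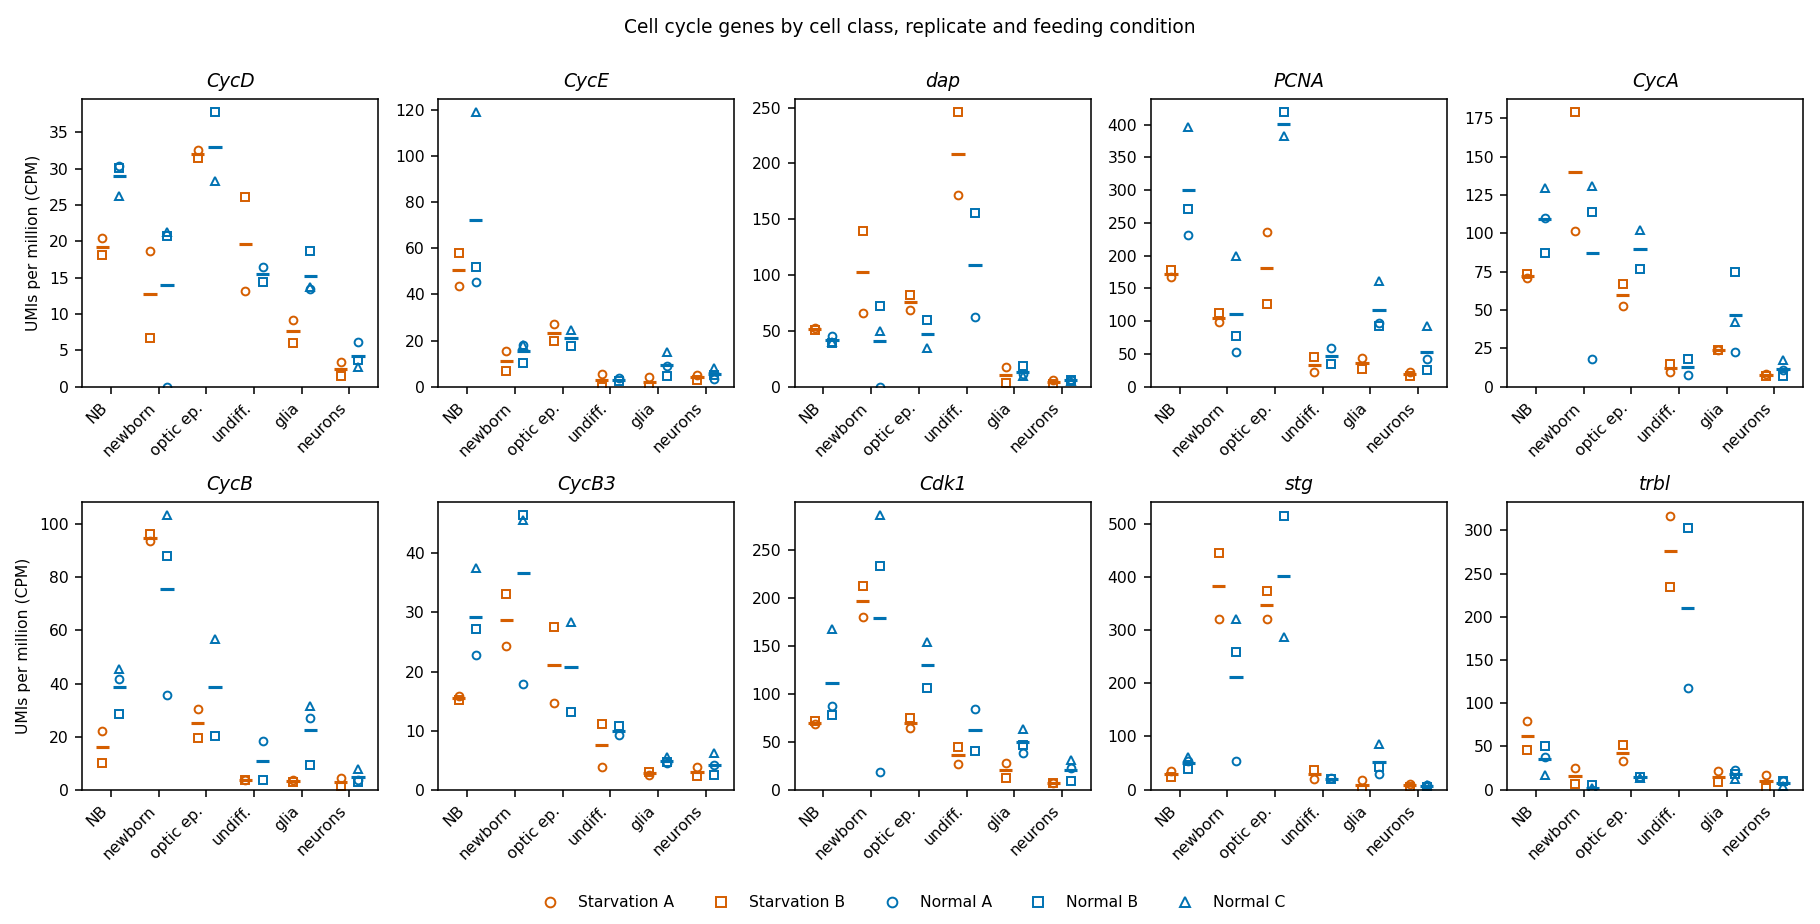
Level of each of the 10 genes in CPM (y axis of each panel, from 0) in the 6 cell classes (x axis), with 1 point per replicate, starvation in orange at the left and normal feeding in blue at the right of each class, and a dash at the mean of each condition. CycE peaks in neuroblasts, stg in the neuroepithelium and newborn neurons, and trbl and dap in undifferentiated neurons, where trbl lies between 117 and 317 CPM.

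The effect of starvation on each member was examined first in neuroblasts. The sums of UMIs per replicate were compared with edgeR's quasi-likelihood test over 7257 genes, with Benjamini-Hochberg adjustment over all of them. None of the 10 members passed an adjusted p of 0.05, where 55 of all genes did (0.758% of those tested), and 4 members had an unadjusted p under 0.05 (CycB, CycB3, dap and trbl) beside 1307 of all genes. DESeq2 called 0 of the 10 and 260 of all genes. Relative to a median of −0.02 over all genes, the log2 fold changes of starvation over normal had a median of −0.44 over the members and were negative for 8 of 10. The positive members were the brakes trbl and dap. The CPM of the starvation and normal replicates did not overlap for 8 of the 10, with 7 lower and dap higher in starvation, where 40.0% of all genes tested did not overlap, 29.4% lower and 10.6% higher. CPM carries no scaling between replicates beyond the total, whereas the fold changes were scaled by TMM factors, without which the median of all genes was −0.24. With 2 and 3 replicates the p-values measure only the spread between these samples.

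Among the G1 and S phase genes, CycD had 20.4 and 18.1 CPM in starvation neuroblasts, against 30.4, 30.1 and 26.3 CPM in Normal A, B and C. Both starvation values lay below the 3 normal ones, and the log2 fold change was −0.35 ± 0.30 (SE; edgeR adjusted p = 0.584). CycE had 43.7 and 57.8 CPM in starvation, against 45.6, 51.8 and 119 CPM in normal replicates. The groups overlapped for CycE, Normal C alone stood far above the others, and the log2 fold change was −0.40 ± 0.42 (edgeR adjusted p = 0.668) and 0.28 without Normal C. PCNA, the sliding clamp of DNA polymerase, had 167 and 178.5 CPM in starvation, against 232, 271 and 397 CPM in normal replicates. All 3 normal values were higher, with Normal C at the top, and the log2 fold change was −0.57 ± 0.35 (edgeR adjusted p = 0.428). The inhibitor dap had 52.5 and 50.6 CPM in starvation, against 45.6, 38.6 and 40.0 CPM in normal replicates. The groups lay close together without overlap, and the log2 fold change was 0.57 ± 0.25 (edgeR adjusted p = 0.254).

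Among the mitotic genes, CycA had 70.8 and 73.7 CPM in starvation neuroblasts, against 110, 87.1 and 130 CPM in normal replicates. Its groups did not overlap, and the log2 fold change was −0.35 ± 0.29 (edgeR adjusted p = 0.567). CycB had 22.3 and 10.1 CPM in starvation, against 41.8, 28.7 and 45.3 CPM in normal replicates, with Starvation B lowest. Its log2 fold change of −0.95 ± 0.36 was the most negative among the members (edgeR adjusted p = 0.188). CycB3 had 15.8 and 15.2 CPM in starvation, against 22.8, 27.2 and 37.5 CPM in normal replicates, a log2 fold change of −0.79 ± 0.35 without overlap (edgeR adjusted p = 0.257). Cdk1, the kinase that these cyclins bind, had 67.9 and 71.5 CPM in starvation, against 87.4, 77.9 and 167 CPM in normal replicates. Normal B stood near the starvation values and Normal C well above, and the log2 fold change was −0.48 ± 0.37 (edgeR adjusted p = 0.533) and 0.07 without Normal C. Without that replicate 6 of 10 members had a negative fold change and none of 6807 genes passed by edgeR (874 at an unadjusted p under 0.05).

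The phosphatase stg and its antagonist trbl had fold changes of opposite sign. In starvation neuroblasts stg had 34.3 and 23.1 CPM, against 53.2, 37.9 and 61.6 CPM in normal replicates. The gap between Starvation A and Normal B was small, and the log2 fold change was −0.57 ± 0.30 (edgeR adjusted p = 0.350). The antagonist trbl had 79.6 and 45.5 CPM in starvation, against 38.0, 50.4 and 16.9 CPM in normal replicates. Starvation B fell within the normal range, Starvation A lay above it and Normal C below it, and the log2 fold change of 1.10 ± 0.40 did not pass (edgeR adjusted p = 0.168). With no filter on low counts trbl passed (edgeR adjusted p = 0.0107), where 5.05% of all genes did. With the 7 libraries as separate samples dap passed (edgeR adjusted p = 0.0422), where 15.9% of all genes did, although libraries of 1 replicate are not separate samples of the condition. Over all the alternatives the adjusted p ran between 0.0107 and 0.651 for trbl and between 0.0422 and 0.772 for dap.

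These directions depended on which neuroblasts were kept. Without the limit of 4500 genes, 8 of 10 members had a positive fold change, with a median of 0.27, and none of all 7421 genes tested passed by edgeR (0.0% called, 763 at an unadjusted p under 0.05). In that setting stg had 141 and 255 CPM in starvation, against 53.2, 53.6 and 231 CPM in normal replicates, and CycE had 142 and 234 CPM in starvation, against 45.6, 63.9 and 185 CPM. Starvation B then held the highest value of both genes, and their log2 fold changes were 0.88 for stg and 0.99 for CycE. Cdk1 had 83.1 and 109 CPM in starvation, against 87.4, 89.3 and 180 CPM in normal replicates, now overlapping, while trbl at 61.4 and 30.4 CPM, against 38.0, 46.0 and 15.3 CPM, still had its lowest value in Normal C. The copied barcodes made up 36.2% of the neuroblasts of Starvation A and 73.6% of those of Normal B. Without them, 255 neuroblasts of Starvation A and 121 of Normal B were left, dap had 59.7 and 50.6 CPM in starvation, against 45.6, 47.8 and 40.0 CPM in normal replicates, and trbl had 90.2 and 45.5 CPM, against 38.0, 63.3 and 16.9 CPM. Transcripts of stg then overlapped, with 32.2 and 23.1 CPM in starvation, against 53.2, 29.8 and 61.6 CPM. Without barcodes shared with the other condition, 192 neuroblasts of Starvation A and 109 of Normal B were left. In that setting 8 of 10 members had a negative fold change and none passed by edgeR, where 0.969% of all genes did. The part of the shared barcodes in the members' values was not tested.

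**Figure D2:**
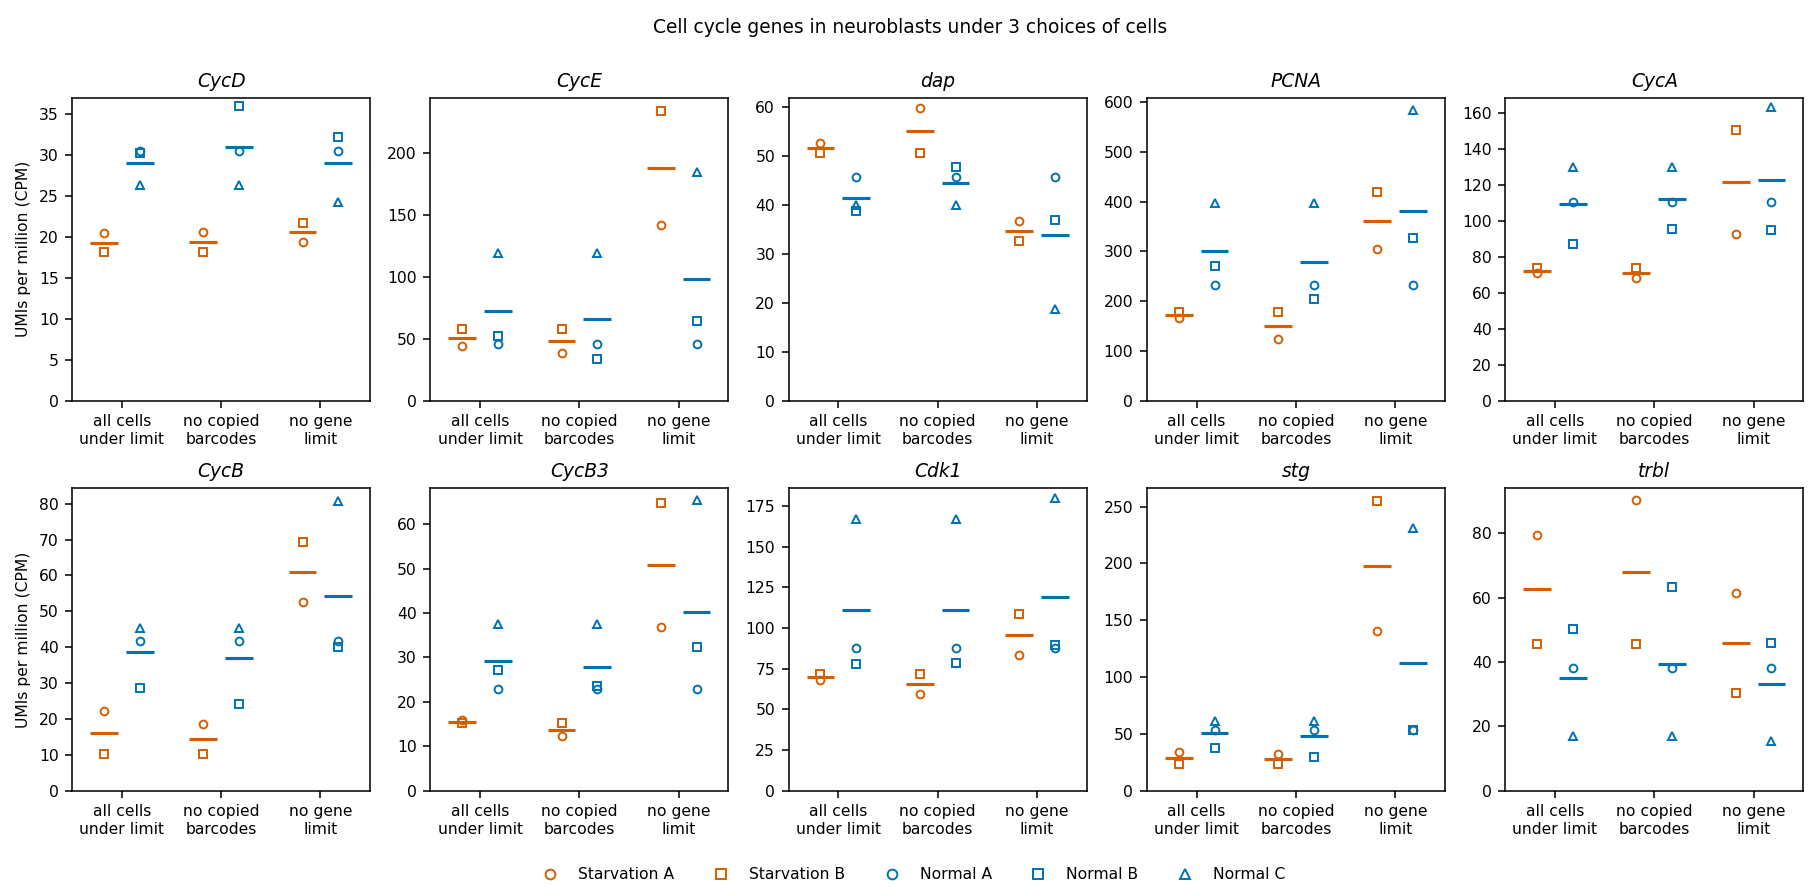
Level of the 10 genes in neuroblasts in CPM (y axes, from 0) under 3 choices of cells (x axis: all cells under the gene limit, without copied barcodes, without the gene limit), with 1 point per replicate, starvation in orange at the left and normal feeding in blue at the right. For stg the starvation points lie at 34.3 and 23.1 CPM under the limit and at 141 and 255 CPM without it, whereas the point of Normal A stays at 53.2 CPM.

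The cells above the limit were rich in CycE and stg and low in the brakes. Neuroblasts over 4500 genes numbered 32 in Starvation A, 23 in Starvation B, 9 in Normal B and 128 in Normal C (of 252 neuroblasts of that replicate), and Normal A had none. In them CycE stood at 310 and 367 CPM in starvation, against 113 and 206 CPM in Normal B and C, and stg at 322 and 428 CPM, against 117 and 287 CPM. Both genes were above their level under the limit in each of these replicates, and both starvation values lay above both normal ones. The share of all genes apart in this way was not taken for these cells, so CycE and stg cannot be set against it. CycB had 104 and 114 CPM in starvation, against 86.2 and 92.4 CPM, and PCNA had 538 and 599 CPM, against 548 and 647 CPM. CycD, at 17.4 and 24.4 CPM in starvation, against 40.1 and 23.6 CPM, was below its level under the limit in Starvation A and Normal C. Among the brakes, trbl had 30.4 and 19.0 CPM in starvation, against 28.2 and 14.8 CPM, and dap had 9.56 and 19.0 CPM, against 29.7 and 11.7 CPM, each of them below the level under the limit in the same replicate. A further 53 cells of Starvation A and 3 of Starvation B over the limit, against 1, 1 and 2 of Normal A, B and C, matched no class by their markers and are in none of these values. The 53 cells of Starvation A held 25.6 CPM of CycE, 17.9 CPM of stg, 48.9 CPM of trbl and 162 CPM of PCNA, and their part in the values of neuroblasts without the limit was not tested.

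The neuroblasts under the limit fell into 5 clusters, and the replicates did not share them evenly. Cluster 15, with mira and Syp among its leading genes, held 36 of 400 neuroblasts of Starvation A and 15 of 70 of Starvation B, against 36 of 45 of Normal A, 11 of 458 of Normal B and 124 of 124 of Normal C. Cluster 3 held 197 neuroblasts of Starvation A and 41 of Starvation B, against 5 of Normal A and 239 of Normal B, and 91.6% of those of Normal B had copied barcodes. Within cluster 15, CycE had 148 and 117 CPM in starvation, against 56.6, 52.2 and 119 CPM in normal replicates, and stg had 98.3 and 50.4 CPM, against 66.9, 137 and 61.6 CPM. CycB had 84.8 and 25.2 CPM, against 46.3, 58.7 and 45.3 CPM, and Cdk1 had 137 and 120 CPM, against 92.6, 84.8 and 167 CPM. Inside this cluster the starvation and normal values of these 4 genes overlapped, as did those of PCNA, at 285 and 299 CPM in starvation, against 257, 404 and 397 CPM in normal replicates. Within cluster 3, PCNA had 104 and 128 CPM in starvation, against 233 CPM in Normal B, and CycE had 17.3 and 31.2 CPM, against 28.0 CPM. Cluster 18 ran the other way, with PCNA at 381 CPM in Starvation A, against 236 CPM in Normal B, CycE at 56.4 CPM, against 27.8 CPM, and Cdk1 at 124 CPM, against 83.97 CPM, where 97.5% and 47.3% of the cells had copied barcodes. Of the 80 cells of Starvation A in cluster 18, only 2 were without copied barcodes.

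Cluster 25 carried the brakes: trbl had 144 and 130 CPM there in starvation, against 107 CPM in Normal B, and dap had 119 and 91.5 CPM, against 103 CPM. Cluster 30 was rich in S phase transcripts, with PCNA at 670 CPM in Starvation A, against 641 CPM in Normal B, CycE at 199 CPM, against 235 CPM, and dap at 0 CPM, against 8.1 CPM. Its 31 cells of Starvation A and 57 of Normal B all carried copied barcodes and have no place in the values without them. The 10 members were left out of the genes used to cluster.

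**Figure D3:**
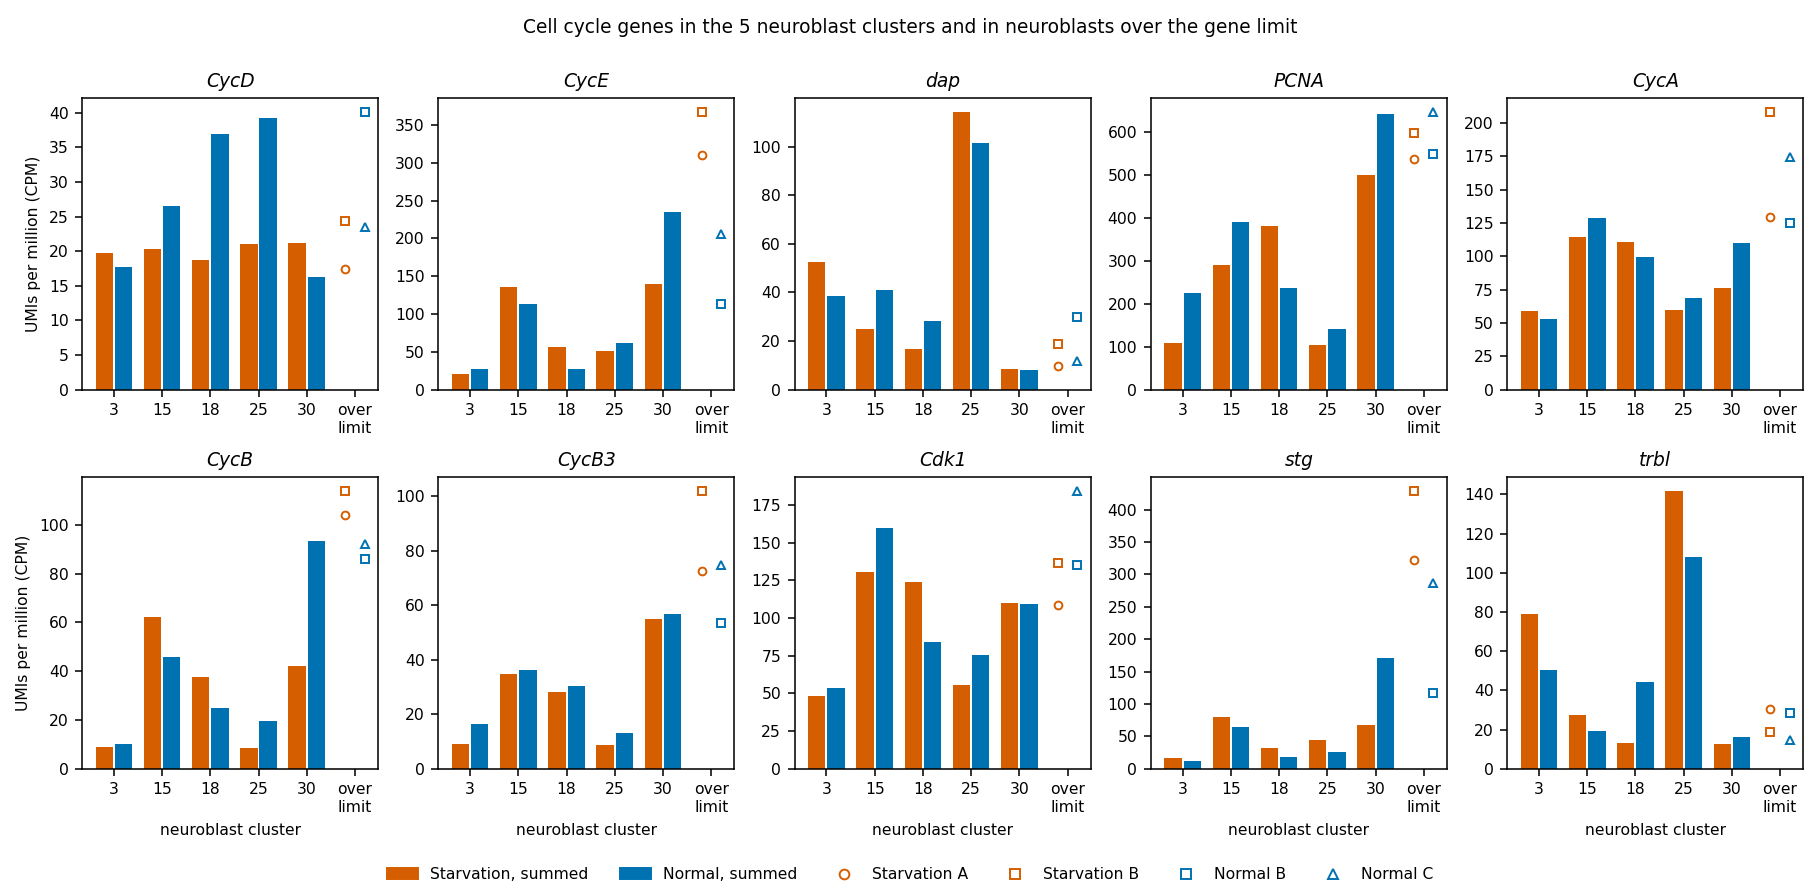
Level of the 10 genes in CPM (y axes, from 0) in neuroblast clusters 3, 15, 18, 25 and 30 and in neuroblasts over the gene limit (x axis); bars are the sum over the cells of a condition in a cluster, points are the replicates of the cells over the limit, starvation in orange at the left and normal feeding in blue at the right. Levels of trbl and dap are high in cluster 25 and low over the limit, where stg reaches 428 CPM in Starvation B.

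To compare cells at 1 depth, neuroblasts with at least 10000 UMIs, over-limit cells included, were thinned to 10000 UMIs each, and the share of cells that keep at least 1 UMI of a gene was taken as its exact average over all possible draws. This left 201 of 432 neuroblasts of Starvation A and 75 of 93 of Starvation B, against 73 of 467 of Normal B and 252 of 252 of Normal C, and too few of Normal A. PCNA was then found in 67.9% and 73.5% of starvation neuroblasts, against 81.8% and 95.9% of normal ones. CycA was found in 51.5% and 57.2%, against 63.4% and 74.5%, and CycB in 24.0% and 23.8%, against 29.7% and 47.2%. These 3 genes were lower in both starvation replicates than in both normal ones, as was CycD, at 20.7% and 16.0%, against 31.1% and 22.1%. The inhibitor dap ran the other way, found in 36.7% and 30.8% of starvation neuroblasts, against 27.8% and 18.0% of normal ones. Cdk1 was found in 48.5% and 57.8%, against 57.8% and 80.4%, so Starvation B and Normal B were level. CycE was found in 35.7% and 51.6%, against 25.6% and 62.3%, stg in 31.6% and 30.7%, against 24.1% and 48.9%, CycB3 in 18.6% and 26.0%, against 23.1% and 38.4%, and trbl in 45.7% and 26.7%, against 35.5% and 14.5%. For each of these last 4 the starvation and normal shares overlapped. With 2 replicates a condition no exact permutation test was run. The share of all genes that are apart in this way was not taken at this depth, so the members without overlap cannot be set against it. In CPM under the gene limit, 40.0% of all genes tested in neuroblasts did not overlap.

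**Figure D4:**
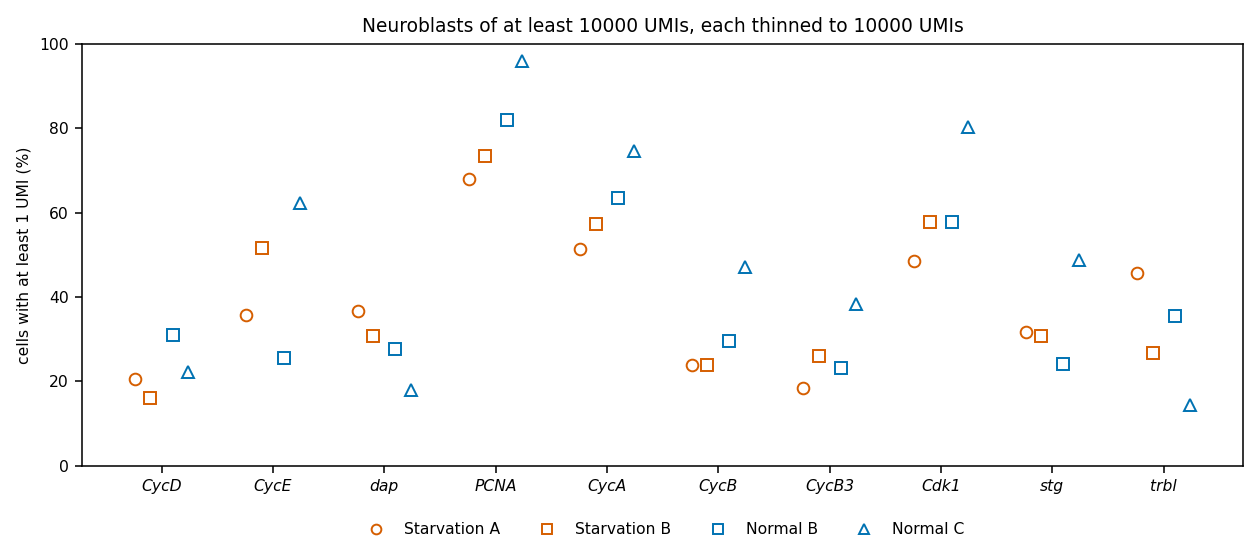
Share of neuroblasts with at least 1 UMI of each of the 10 genes (y axis, percent, from 0) expected after thinning cells of at least 10000 UMIs to 10000 UMIs, with Starvation A and B in orange at the left and Normal B and C in blue at the right of each gene (x axis). PCNA, CycA, CycB and CycD are lower and dap is higher in both starvation replicates than in both normal ones. The share of all genes apart in this way was not taken.

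All replicates could enter at 1000 UMIs per cell, at which few cells showed any member. There PCNA was expected in 20.2% of all neuroblasts, CycA in 7.66%, Cdk1 in 7.55%, trbl in 5.77%, CycE in 5.70%, dap in 4.47% and stg in 3.93%. Muscle cells were set beside them for comparison (105 cells, median of 2973 UMIs, against 5802 UMIs in neuroblasts), and in them PCNA was expected in 7.93%, stg in 3.12%, trbl in 1.75%, dap in 1.62%, Cdk1 in 1.06% and CycA in 0.489%. Free RNA and transcripts made by the muscle cells themselves cannot be told apart in these shares. CycB and CycE were found in 0 of 105 muscle cells at any depth, which allows a share of up to 2.86%, so the neuroblast share of CycB, at 2.84%, lay within that limit. For stg the shares were 3.32% and 3.06% in starvation neuroblasts, against 9.28%, 3.51% and 6.00% in normal ones (two-sided exact permutation test, p = 0.2, the smallest that 2 against 3 replicates allow). The stg shares of Starvation A and B and of Normal B stood near the muscle share. PCNA was at 16.4% and 12.1% in starvation, against 20.6%, 21.8% and 30.7% in normal neuroblasts (two-sided exact permutation test, p = 0.2). It stayed above its muscle share in every replicate. The groups of stg and PCNA did not overlap, and the share of all genes apart in this way was not taken at this depth. Shares of the other members by condition are not given here.

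Members were also found together within deep neuroblasts, as a description of single cells that are no replicates. At 10000 UMIs PCNA was expected in 84.4% of the cells with CycE and 58.7% of those without in Starvation A, in 79.7% and 66.8% in Starvation B, in 90.1% and 79.0% in Normal B and in 96.8% and 94.4% in Normal C. Likewise stg was expected in 52.5% of the cells with CycB and 25.0% of those without in Starvation A, in 64.4% and 20.2% in Starvation B, in 33.8% and 19.97% in Normal B and in 57.0% and 41.7% in Normal C. In each of the 4 replicates PCNA went with CycE and stg with CycB. At this depth the brakes ran the other way with CycE: dap was expected in 23.3% of the cells with CycE and 44.2% of those without in Starvation A, in 25.6% and 36.4% in Starvation B, in 26.6% and 28.2% in Normal B and in 14.8% and 23.2% in Normal C. For trbl these shares were 29.9% and 54.5% in Starvation A and 22.2% and 31.5% in Starvation B. They lay closer in Normal B (32.7% and 36.5%) and Normal C (14.4% and 14.8%). At 1000 UMIs, in all neuroblasts under the gene limit, this was not seen. CycE and trbl were expected together in 3.10 cells, against 3.28 from the product of their shares, and CycE and dap in 2.79, against 2.73. At 10000 UMIs the brakes went with each other, since dap was expected in 43.7% of the cells with trbl and 30.9% of those without in Starvation A, in 33.3% and 29.9% in Starvation B, in 33.0% and 24.9% in Normal B and in 23.7% and 17.0% in Normal C.

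In the neuroepithelium (Normal A had 2 cells and did not enter), none of the 10 members passed in edgeR where 58 of 4930 genes did (1.18%; 2 members and 785 genes had an unadjusted p under 0.05, and DESeq2 called 0 members and 19 genes), and 5 members did not overlap between conditions, beside 53.2% of all genes tested. PCNA had 236 and 126 CPM in starvation, against 420 and 384 CPM in Normal B and C, a log2 fold change of −0.98 ± 0.40 (edgeR adjusted p = 0.219). Both starvation values were lower by over 100 CPM. The antagonist trbl had 32.6 and 51.0 CPM in starvation, against 14.5 and 13.6 CPM, and its log2 fold change of 1.62 ± 0.50 did not pass (edgeR adjusted p = 0.110). Without copied barcodes, which were 59.0% of these cells in Starvation A and 78.0% in Normal B, PCNA had 113 and 126 CPM in starvation, against 516 and 384 CPM, and fell by 1.68 ± 0.35 on the log2 scale (edgeR adjusted p = 0.0100), and trbl had 39.4 and 51.0 CPM, against 19.9 and 13.6 CPM, and rose by 1.69 ± 0.50 (edgeR adjusted p = 0.0393). In that setting 15.3% of all genes passed. The conditions then stood in different clusters: cluster 31 held 23 of 25 such cells of Starvation A and 8 of 10 of Starvation B, against 1 of 20 of Normal B and 0 of 25 of Normal C, and the other cells stood in cluster 28. Over all its cells PCNA was at 116 CPM in cluster 31 and 440 CPM in cluster 28, and trbl at 38.1 and 15.1 CPM, so the levels of condition and cluster cannot be told apart without copied barcodes. Without the gene limit PCNA changed by −1.27 ± 0.27 and trbl by 1.23 ± 0.34 (edgeR adjusted p = 0.0233 and 0.0481), where 8.96% of all genes passed. Without barcodes shared with the other condition none of 6 members tested passed, where 10.2% of 2030 genes did.

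The other members of the neuroepithelium were less far apart. The inhibitor dap had 68.6 and 82.4 CPM in starvation, against 59.5 and 34.5 CPM (log2 fold change 0.80 ± 0.42), Cdk1 had 64.1 and 74.6 CPM, against 106 and 154 CPM (−0.78 ± 0.40), and CycA had 52.8 and 66.7 CPM, against 76.9 and 102 CPM. These groups did not overlap. The abundant stg had 320 and 373 CPM in starvation, against 515 and 287 CPM, and CycB 30.3 and 19.6 CPM, against 20.3 and 56.7 CPM, both with overlap. The cells of Normal C all stood in cluster 28. PCNA there was at 496 CPM in Starvation A, against 535 CPM in Normal B and 384 CPM in Normal C. Cluster 31 had 116 CPM of PCNA in Starvation A, against 139 CPM in Normal B. In cluster 28, 93.9% of the cells of Starvation A had copied barcodes, against 54.8% in Normal B and 0% in Normal C. In cluster 31 these shares were 17.9% in Starvation A and 98.0% in Normal B.

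In glia, the niche cells that pass nutrient signals to neuroblasts, 5 members had enough counts to be tested, and 1 of these passed, with a lower level in starvation, where 4.29% of 3849 genes did (1.53% lower). CycB had 3.8 and 3.0 CPM in starvation glia, against 27.0, 9.3 and 31.5 CPM in normal glia, a log2 fold change of −2.54 ± 0.65 (edgeR adjusted p = 0.0462). Behind these values stood 9 and 1 UMIs in starvation, against 12, 2 and 23 UMIs in normal glia, and the call was lost without Starvation A, without Starvation B and under 3 other alternatives, and without Normal A, without Normal C and with the libraries as separate samples CycB had too few counts to be tested (adjusted p between 0.00966 and 0.439 over the alternatives). PCNA had 44.2 and 27.1 CPM in starvation, against 96.6, 93.1 and 162 CPM, and its log2 fold change of −1.43 ± 0.38 did not pass (edgeR adjusted p = 0.0522). Its groups stood well apart, and with CycB it passed without copied barcodes (5.12% of all genes called), without barcodes shared with the other condition (5.73%), without the gene limit (4.64%) and, with stg, with no filter on low counts (2.98%). Transcripts of stg had 18.3 and 0 CPM in starvation (44 and 0 UMIs), against 29.2, 41.9 and 84.9 CPM, a log2 fold change of −1.81 ± 0.63 (edgeR adjusted p = 0.120). Cdk1 had 27.9 and 12.0 CPM, against 38.2, 46.5 and 63.0 CPM, and CycA 23.8 and 24.1 CPM, against 22.5, 74.5 and 42.4 CPM. Of the 5 tested, 4 did not overlap, where 36.2% of all genes did not. The 10 neuroblast markers summed to 158 and 81.3 CPM in starvation glia, against 126, 126 and 170 CPM in normal glia, with none at 0 in Starvation A and 3 at 0 in Starvation B, against 1, 4 and 0 at 0, and their part in the glial values was not tested.

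In newborn neurons none of 7 members tested passed, as did none of 3468 genes in edgeR (0.0%; 0 members and 107 genes had an unadjusted p under 0.05, and DESeq2 called 0 members and 6 genes), and no member's groups were apart, where 19.7% of all genes did not overlap. For stg the values were 321 and 445 CPM in starvation, against 53.5, 258.5 and 321 CPM in normal replicates, with a log2 fold change of 0.87 ± 0.54. For Cdk1 they were 180 and 212 CPM, against 17.8, 233 and 286 CPM. Starvation B had the top stg value and Normal A the lowest value of both genes. Of the 15 newborn neurons of Normal A, 11 were in cluster 29 (low in mitotic genes), and of the 50 of Normal C, 49 were in cluster 20. The inhibitor dap had 66.1 and 139 CPM in starvation, against 0, 72.4 and 50.2 CPM (1.14 ± 0.61), and CycA had 101 and 179 CPM, against 17.8, 114 and 131 CPM.

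In undifferentiated neurons (Normal C had 3 cells and did not enter), none of 5 members tested passed in edgeR, where 2 of 5253 genes did (0.0381%; 1 member and 386 genes had an unadjusted p under 0.05, and DESeq2 called 0 members and 7 genes). The inhibitor dap had 172 and 246 CPM in starvation, against 62.3 and 156 CPM in Normal A and B, a log2 fold change of 1.06 ± 0.48 (edgeR adjusted p = 0.672). It was the 1 member of 5 without overlap, beside 39.5% of all genes. The antagonist trbl had 317 and 234 CPM in starvation, against 117 and 303 CPM (0.55 ± 0.47, edgeR adjusted p = 0.879). Normal A held the lowest value of both, and 212 of its 214 cells were in cluster 13, led by heat shock genes, where trbl was at 114 CPM and dap at 58.9 CPM. In cluster 2, which held most cells of the other replicates, trbl had 324 and 237 CPM in starvation, against 307 CPM in Normal B, and dap had 182 and 245 CPM, against 158 CPM.

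In neurons, which have left the cell cycle, the members were low and none of 10 passed in edgeR where 1 of 8077 genes did (0.0124%; 2 members and 695 genes had an unadjusted p under 0.05, and DESeq2 called 0 members and 113 genes). PCNA had 22.9 and 16.5 CPM in starvation neurons, against 42.8, 25.9 and 91.9 CPM in normal ones, a log2 fold change of −1.45 ± 0.55 (edgeR adjusted p = 0.502). Cdk1 had 7.3 and 7.4 CPM, against 22.2, 9.1 and 31.2 CPM, with −1.500 ± 0.52 (edgeR adjusted p = 0.438). These 2 of 10 did not overlap, beside 24.5% of all genes, and they passed with no filter on low counts, where 2.45% of all genes did. Whether the effect of starvation differed between neuroblasts and neurons was tested as an interaction over 8023 genes, of which 2 passed (0.0249%) and none was a member. The lowest adjusted p among the members was that of Cdk1 (difference of log2 fold changes 0.98 ± 0.36, edgeR adjusted p = 0.575), followed by stg (−0.90 ± 0.34, edgeR adjusted p = 0.575).

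Other genes of the cell cycle were read from 4 lists that hold none of the members: S phase replication genes, mitosis genes, cyclin and CDK regulators, and genes of nutrient-dependent reactivation. In neuroblasts, 0 of 37 S phase genes tested passed, 34 had a negative log2 fold change, and their median was −0.43, against −0.02 over all genes. Without the gene limit 11 of them were negative and the median was 0.12. Of 51 mitosis genes 0 passed, 30 were negative and the median was −0.10. Of 37 cyclin and CDK regulators 1 rose, lok, the checkpoint kinase Chk2 (1.32 ± 0.25, edgeR adjusted p = 0.0407), with a list median of −0.07. No gene of that list passed without barcodes shared with the other condition, without the gene limit or by library sizes alone. Of 42 reactivation genes 1 fell, Hsp83, the Hsp90 chaperone (−2.39 ± 0.45, edgeR adjusted p = 0.0399), and the list median was 0.31, with no call without the gene limit or by library sizes alone. Hsp83 had 432 and 266 CPM in starvation neuroblasts, against 1456, 1949 and 2942 CPM in normal ones, and 10 small and inducible heat shock genes summed to 430 and 704 CPM, against 3207, 2166 and 2620 CPM; the part of this difference in the members' values was not tested.

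With the gene limit and the copied barcodes kept, the same lists gave few calls in the other classes. In the neuroepithelium 0 of 31 S phase genes passed with 29 negative and a median of −0.61, and 0 of 46 mitosis genes passed with a median of 0.00. The kinase Hipk rose there by 1.90 ± 0.44 (edgeR adjusted p = 0.0371), and among 35 reactivation genes InR, the insulin receptor, rose by 2.15 ± 0.46 (edgeR adjusted p = 0.0244), unk, a partner of TOR signalling, rose by 1.95 ± 0.45 (edgeR adjusted p = 0.0371) and Hsp83 fell by 2.10 ± 0.47 (edgeR adjusted p = 0.0349). None of these 4 calls was made by library sizes alone. Without copied barcodes 4 of 25 S phase genes tested there fell and all 25 were negative, where 15.3% of all genes passed. Without the gene limit 6 of 37 fell, where 8.96% of all genes passed. Of the reactivation genes, 7 rose and 2 fell without copied barcodes, and 6 rose and 1 fell without the gene limit. Without barcodes shared with the other condition 0 of 17 S phase genes passed. In glia 13 of 14 S phase genes were negative with a median of −0.81 and none passed, nor did any of 11 mitosis genes (median −0.20) or 17 cyclin and CDK regulators (median 0.11). Of 25 reactivation genes in glia, InR rose by 1.90 ± 0.32 (edgeR adjusted p = 0.00648), Rheb, the GTPase that activates TOR, rose by 1.15 ± 0.29 (edgeR adjusted p = 0.0424), and Hsp83 fell by 2.36 ± 0.52 (edgeR adjusted p = 0.0265), whereas by library sizes alone 1 gene of the list rose and 1 fell. No gene of the 4 lists passed in newborn neurons, undifferentiated neurons or neurons, where the S phase medians were 0.27 over 16 genes, −0.35 over 15 and −0.47 over 35.

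The genes whose level ran most like that of each member were sought over the 28 sums of class and replicate among 7122 genes, by Pearson's r of log2(CPM + 5); the sums share libraries and depth. CycE ran most like mira (r = 0.86) and dpn, both used to name neuroblasts. Cdk1 ran with the spindle genes feo (r = 0.92) and Spc25, PCNA with the replication genes Claspin (r = 0.93) and RnrL, and CycA with the cytokinesis gene pbl (r = 0.93). CycB ran with Prosalpha3 (r = 0.90), CycB3 with CNBP (r = 0.95), CycD with CG8142 (r = 0.90) and stg with tll (r = 0.82), which was highest in newborn neurons (218 CPM) and stood at 77.0 CPM in the neuroepithelium. The brakes had other companions, goe for trbl (r = 0.96) and CG4570 for dap (r = 0.89).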

How the data were processed

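Single cell transcriptomes of dissociated larval brains were made by the authors with a droplet 3′ kit and counted with Cell Ranger on FlyBase gene models. The deposited values are raw UMI counts per gene and cell. The aggregated matrices of each condition held the same counts as the single libraries. The link of libraries to replicates rests on cell numbers and medians that match the study's library table, not on the labels.

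The members and gene lists were chosen with earlier results of these data known. Cells with over 200 and under 4500 genes and under 20% mitochondrial UMIs were kept. They were integrated by condition (Seurat 5.3.0 in R 4.3.3, 30 anchor dimensions, 2000 features, 31 components, resolution 2, seed 42). The members and pathway lists were left out of the features, except pathway genes that were also markers, such as unk. Clusters were named from 12 marker lists: at least 3 markers in 25% of cells, a mean log2 fold (5 CPM added) of at least 0.4 and a lead of 0.3. These naming thresholds were chosen with the clusters in view. A doublet caller marked 40 cells (0.428%, under 0.5%) and was not relied on.

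UMIs were summed per replicate and class of at least 10 cells, filtered with filterByExpr, scaled by TMM and tested with edgeR 4.0.16 (quasi-likelihood, Benjamini-Hochberg, threshold 0.05), and with DESeq2 1.42.0 as an alternative. CPM values carry no TMM scaling. Shares of cells at 1 depth are exact averages over all draws of that many UMIs from a cell. The edgeR test of each class was tested on simulated data, the interaction and DESeq2 were not. In neuroblasts (7257 genes) it recovered 24% of genes changed 2-fold up, 92% changed 4-fold up, 10% changed 2-fold down and 78% changed 4-fold down. All 10 members are named, with up to 3 called genes per list and direction and the 3 genes most like each member. No column was left unmapped. Limits at 0 of n are 3 cells of n and cover counting error only. Python 3.11.15 was used for tables and figures.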

Additional observations from a re-analysis of the deposited data

Results flagged for a closer look

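Of 32 sets of 4 normal libraries examined, 3 held a library far from the others by Dixon's criterion, and each time it was Normal C. The 4 libraries are 3 replicates, and both libraries of Normal B share 597 barcodes, so the criterion's chance rate of about 1 in 20 does not apply to them. CycE in neuroblasts had 119 CPM in Normal C and 45.6 to 55.7 CPM in the other libraries, a gap of 0.862 of the range. Cdk1 in neuroblasts had 167 CPM in Normal C and 75.8 to 87.4 CPM in the others (0.873). CycB in neurons had 7.87 CPM in Normal C and 2.71 to 3.54 CPM in the others (0.840).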

How the results depend on the processing

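The values rest on 2 and 3 replicates, on the link of libraries to replicates and on which neuroblasts are kept. Without TMM, library sizes alone moved the median log2 fold change of all genes to −0.24 in neuroblasts, −0.14 in the neuroepithelium, −0.19 in undifferentiated neurons, −0.26 in glia, −0.13 in newborn neurons and −0.03 in neurons. Genes called over all alternatives ran between 0 and 1011 in neuroblasts (55 as reported; 0 by library sizes alone, without the gene limit or without Normal C, 260 by DESeq2, 333 without copied barcodes), 0 and 610 in the neuroepithelium, 10 and 465 in glia, 1 and 320 in neurons, 0 and 74 in undifferentiated neurons and 0 and 41 in newborn neurons. The causes were not tested.

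Members called numbered 1 in neuroblasts with no filter and 1 with 7 separate libraries, 2 in the neuroepithelium without copied barcodes or without the gene limit, and 2 in neurons with no filter. In glia they numbered 0 by DESeq2, with the replicate block, without the top 5% of doublet scores and with clusters made on the members, 2 without copied or shared barcodes or the gene limit, 3 with no filter and 0 to 2 with a replicate left out. Neuroblasts expected to show CycE and PCNA together at 1000 UMIs numbered 7.87 without copied barcodes, against 19.0 with them. The label numbers did not pair the samples (correlations of same-numbered libraries in neuroblasts 0.0942, −0.0450 and 0.1403). Libraries of unlike number ran between −0.272 (Starvation B with Normal A) and 0.299 (1 library of Starvation A with Normal A), with Starvation B and Normal C at 0.288. No fit paired samples by these correlations, and a structure shared across conditions was not tested. With the block, 485 genes and 0 members were called in neuroblasts, and log2 fold changes turned for Cdk1 (0.011) and CycE (0.11) in neuroblasts, PCNA (0.74) in newborn neurons, CycD (−0.23) and CycB (0.48) in the neuroepithelium, and CycA (0.053), CycB3 (0.23), CycB (0.17) and CycE (0.13) in neurons.

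Without the gene limit, those of stg (0.88), PCNA (0.057), CycA (0.14), CycB3 (0.32), CycB (0.23) and CycE (0.99) turned in neuroblasts, that of CycE (−0.74) in the neuroepithelium, that of PCNA (0.17) in undifferentiated neurons, and the differences between neuroblasts and neurons for stg (0.62), CycB3 (0.56) and CycB (0.73). By library sizes alone, Cdk1 (−0.028) in newborn neurons, CycD (−0.031) in the neuroepithelium and the differences for CycD (−0.16), CycA (−0.078) and CycE (−0.22) turned. With 7 libraries, Cdk1 (−0.045) in newborn neurons and the difference for CycE (−0.082) turned, and with no filter that for CycE (−0.0049). In the neuroepithelium CycB3 turned without copied barcodes (0.098), without the top doublet scores (0.0054) and with clusters made on the members (0.035). Without barcodes shared with the other condition, an alternative chosen after seeing the data, stg (0.11) and CycB (0.27) turned there, as did the difference for CycE (−0.078).

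Leaving out 1 replicate gave ranges across 0. In neuroblasts they were −0.68 to 0.071 for Cdk1 and −0.69 to 0.28 for CycE, each positive without Normal C. In newborn neurons they were −0.46 to 0.82 for PCNA and −0.38 to 0.58 for Cdk1. In the neuroepithelium they were −0.47 to 0.50 for stg, −0.14 to 0.40 for CycD, −0.39 to 0.60 for CycB3 and −0.86 to 0.48 for CycB, and in undifferentiated neurons −0.85 to 0.12 for PCNA. In neurons they were −0.20 to 0.67 for stg, −1.11 to 0.15 for dap, −0.80 to 0.060 for CycB3, −1.84 to 1.11 for trbl, −1.66 to 0.081 for CycB and −0.86 to 0.087 for CycE. For the differences between neuroblasts and neurons they were −0.11 to 0.95 for CycD, −0.61 to 0.13 for CycB3, −0.69 to 0.14 for CycB and −0.33 to 0.94 for CycE.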
